A study of Mus musculus with 16 samples.

Results

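The 8 genes described here encode secreted factors that call neutrophils into tissue or sustain them there: the chemokines Cxcl1, Cxcl2, Cxcl3 and Cxcl5, the colony-stimulating factors Csf3 and Csf2, and the IL-6 family cytokines Il6 and Osm. They were chosen by name, and all 8 were found among the 18929 genes of the expression table. The question was whether they rose in tumors given α-KG alone, together with S100a8 and S100a9, which encode the calprotectin subunits that fill the neutrophil cytoplasm. The table holds bulk RNA-seq values of B16F10 tumors, 4 tumors in each of 4 groups. The B16F10 line comes from a mouse melanoma, and 500000 cells were placed in the right abdomen of mice that were female, of the C57BL/6 strain and aged 7 to 8 weeks; the host keeps its immune system. Treatment began at a tumor volume of about 50 mm3 and was given intraperitoneally for 9 to 11 days. The vehicle group (labelled Vehicle) received corn oil with an IgG2a isotype antibody, the anti-PD1 group (PD1mAb) an antibody that blocks the checkpoint receptor PD1, the α-KG group (alpha_KG) α-ketoglutarate at 100 mg/kg, and the α-KG + anti-PD1 group (aKG_PD1mAb, here also the combination) both agents. α-Ketoglutarate is a metabolite of the citric acid cycle and a cofactor of dioxygenases that demethylate DNA and histones.

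CXCL1, CXCL2, CXCL3 and CXCL5 are small chemokines with a Glu-Leu-Arg motif that bind CXCR2 on neutrophils and draw them along a gradient. G-CSF, the product of Csf3, drives the production and release of neutrophils from the bone marrow, and GM-CSF, the product of Csf2, acts on neutrophils, monocytes and dendritic cells. IL-6 and oncostatin M (Osm) share the receptor subunit gp130 and act through STAT3, and myeloid cells are a known source of oncostatin M. Transcription of several of these genes is known to be driven by NF-κB after IL-1 or TNF, and their messages are known to be short-lived.

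The values are FPKM, fragment numbers scaled by transcript length and library size. FPKM does not adjust for a different RNA composition between tumors. Counts of genes called between groups moved under other scalings, as given below. Sums of all FPKM values per tumor were 514180 to 654772, and those of the combination, 514180 to 527812, were the lowest of the 4 groups. The number of reads per tumor is unknown, so values below about 1 FPKM have an unknown counting error. Of the 8 members, 5 (Cxcl1, Cxcl2, Cxcl3, Csf3 and Osm) reached 0.5 FPKM in at least 4 tumors and entered the test across 12850 genes, and Cxcl5, Csf2 and Il6 did not. Csf3 reached that level only in the 4 α-KG tumors and in combination tumor 4, so it entered through the group in which it was high. That combination tumor stood apart from the other 3 of its group in Cxcl1, Cxcl2 and Csf3, and results that rest on it are also given without it. In bulk tissue, fewer cells of a type and less RNA per cell cannot be told apart.

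The 4 chemokine genes lie in 1 cluster on chromosome 5, and the stretch just before the start site is shown for the 3 that passed the filter, with Il6 for comparison, because a κB core stood at a similar place in each. The sequences are RefSeq's for GRCm38.p6, plus strand, bases -120 to -1 from the start site, 5′ to 3′. Capitals mark the κB core, searched on both strands as GGNNTTTCC, and the stretches cover chr5:90891125-90891244 for Cxcl1, chr5:90903779-90903898 for Cxcl2, chr5:90785981-90786100 for Cxcl3 and chr5:30012994-30013113 for Il6.
Cxcl1: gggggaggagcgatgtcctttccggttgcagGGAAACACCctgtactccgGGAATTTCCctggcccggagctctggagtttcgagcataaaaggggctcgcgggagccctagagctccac
Cxcl2: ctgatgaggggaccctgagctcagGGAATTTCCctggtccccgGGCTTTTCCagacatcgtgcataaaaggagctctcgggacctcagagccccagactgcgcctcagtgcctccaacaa
Cxcl3: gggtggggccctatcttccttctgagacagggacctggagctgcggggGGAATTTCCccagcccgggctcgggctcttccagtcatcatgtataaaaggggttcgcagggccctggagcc
Il6: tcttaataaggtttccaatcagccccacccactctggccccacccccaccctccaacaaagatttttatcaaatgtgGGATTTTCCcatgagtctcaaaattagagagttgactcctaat
Cxcl1, Cxcl2 and Cxcl3 all held GGAATTTCC, with its first base at -70, -96 and -72. Cxcl1 and Cxcl2 held another core beside it, at -89 and at -77, and Il6 held GGATTTTCC at -43. Among 32851 promoters of 300 bases (250 before to 50 after the start), 5.82% held such a core. In the same 300 bases no AP-1 site (TGANTCA, in 7.81% of promoters), C/EBP site (TTGCNNAA, in 10.8%) or STAT site (TTCNNNGAA, in 8.3%) was found for the 3 chemokines, while Il6 held an AP-1 site at -249 and a C/EBP site at -128. The promoter of Csf2 held a κB core at 24 bases after the start and a C/EBP site at -145, that of S100a9 a C/EBP site at -236, and that of S100a8 none of the 4 motifs. Cxcl5, Csf3 and Osm had no promoter entry. A match of letters is a description of these windows only.

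The chemokines were highest in the α-KG tumors. Cxcl2, which with Cxcl1 is the main CXCR2 ligand of mouse tissue, was at 565.5, 414.5, 606.8 and 1232 FPKM in the 4 α-KG tumors. It was at 1.45, 7.7, 4.64 and 5.04 FPKM in the vehicle tumors, and the lowest α-KG tumor lay far above the highest vehicle tumor. The mean was 705 ± 361 FPKM in α-KG and 4.71 ± 2.56 in vehicle tumors (SD, n = 4), a ratio of 150. As log2(FPKM + 1), a scale that understates changes of low genes, Cxcl2 rose by 6.96 ± 0.64 (SE; adjusted p = 1.87e-06, limma with Benjamini-Hochberg adjustment), the largest increase of the 12850 genes tested.

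Cxcl3, a close relative of Cxcl2, was at 158.4, 137.9, 126.6 and 377.4 FPKM in the α-KG tumors. In the vehicle tumors it was at 2.02, 5.07, 4.53 and 2.98 FPKM, with no overlap between the groups. It rose by 5.33 ± 0.39 on the log2 scale (adjusted p = 1.91e-07). The messages of Cxcl2 and Cxcl3 are 73.1% identical over the shorter and share a run of 110 identical bases, so some fragments could be assigned to either, and how the authors' counting treated them is not given in the sources used here.

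Cxcl1 was much lower than both. It was at 4.52, 3.67, 3.55 and 7.7 FPKM in the α-KG tumors and at 0.17, 0.34, 0 and 0.43 FPKM in the vehicle tumors. The groups did not overlap, and Cxcl1 rose by 2.21 ± 0.27 on the log2 scale (adjusted p = 3.82e-05). Its message shares no run longer than 23 bases with that of Cxcl2 or Cxcl3.

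Cxcl5, which epithelial cells are known to make, was at 0.13, 0.11, 0.26 and 0.31 FPKM in the α-KG tumors. It was at 0.05 FPKM in vehicle tumor 1 and listed at 0 in the other three. These values are too low for the filter. Without the filter its log2 difference was 0.24 ± 0.06 (SE; limma adjusted p = 0.013).

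The colony-stimulating factors differed from each other. Csf3 was at 9.9, 3.77, 8.66 and 15.19 FPKM in the α-KG tumors, against 0.06, 0.14, 0 and 0.05 FPKM in the vehicle tumors. Its log2 difference was 3.16 ± 0.30 (adjusted p = 2.58e-06, limma), past the threshold, with the filter's part in that call as said above. Csf2 was listed at 0 in all 4 vehicle tumors and was at 0.24, 0, 0 and 0.1 FPKM in the α-KG tumors. The groups overlapped at 0, and the log2 difference without the filter was 0.11 ± 0.11 (limma adjusted p = 0.61).

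Of the IL-6 family cytokines, Osm was at 24.47, 33.05, 34 and 57.64 FPKM in the α-KG tumors. In the vehicle tumors it was at 0.66, 1.47, 0.5 and 0.46 FPKM. The means had a ratio of 48.3, and Osm rose by 4.40 ± 0.27 on the log2 scale (adjusted p = 8.0e-08, limma). Il6 was at 0.72, 0.35, 0.3 and 0.51 FPKM in the α-KG tumors and at 0.07, 0.06, 0 and 0 in the vehicle tumors, so the groups did not overlap although the level stayed below 1 FPKM. Its log2 difference without the filter was 0.50 ± 0.08 (limma adjusted p = 0.00144).

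S100a8 was at 606.9, 415.8, 785.4 and 1044 FPKM in the α-KG tumors and at 5.6, 7.69, 11.84 and 14.09 FPKM in the vehicle tumors. S100a9 was at 751, 529.3, 1021 and 1473 FPKM in the α-KG tumors and at 4.86, 11.13, 11.23 and 14.72 FPKM in the vehicle tumors. They rose by 6.04 ± 0.61 and 6.35 ± 0.64 on the log2 scale (adjusted p = 4.89e-06 and 5.4e-06, limma), less than Cxcl2 and more than the other members. Within the α-KG group the highest value of Cxcl1, Cxcl2, Cxcl3, Cxcl5, Csf3, Osm, S100a8 and S100a9 was in tumor 4.

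**Figure D1:**
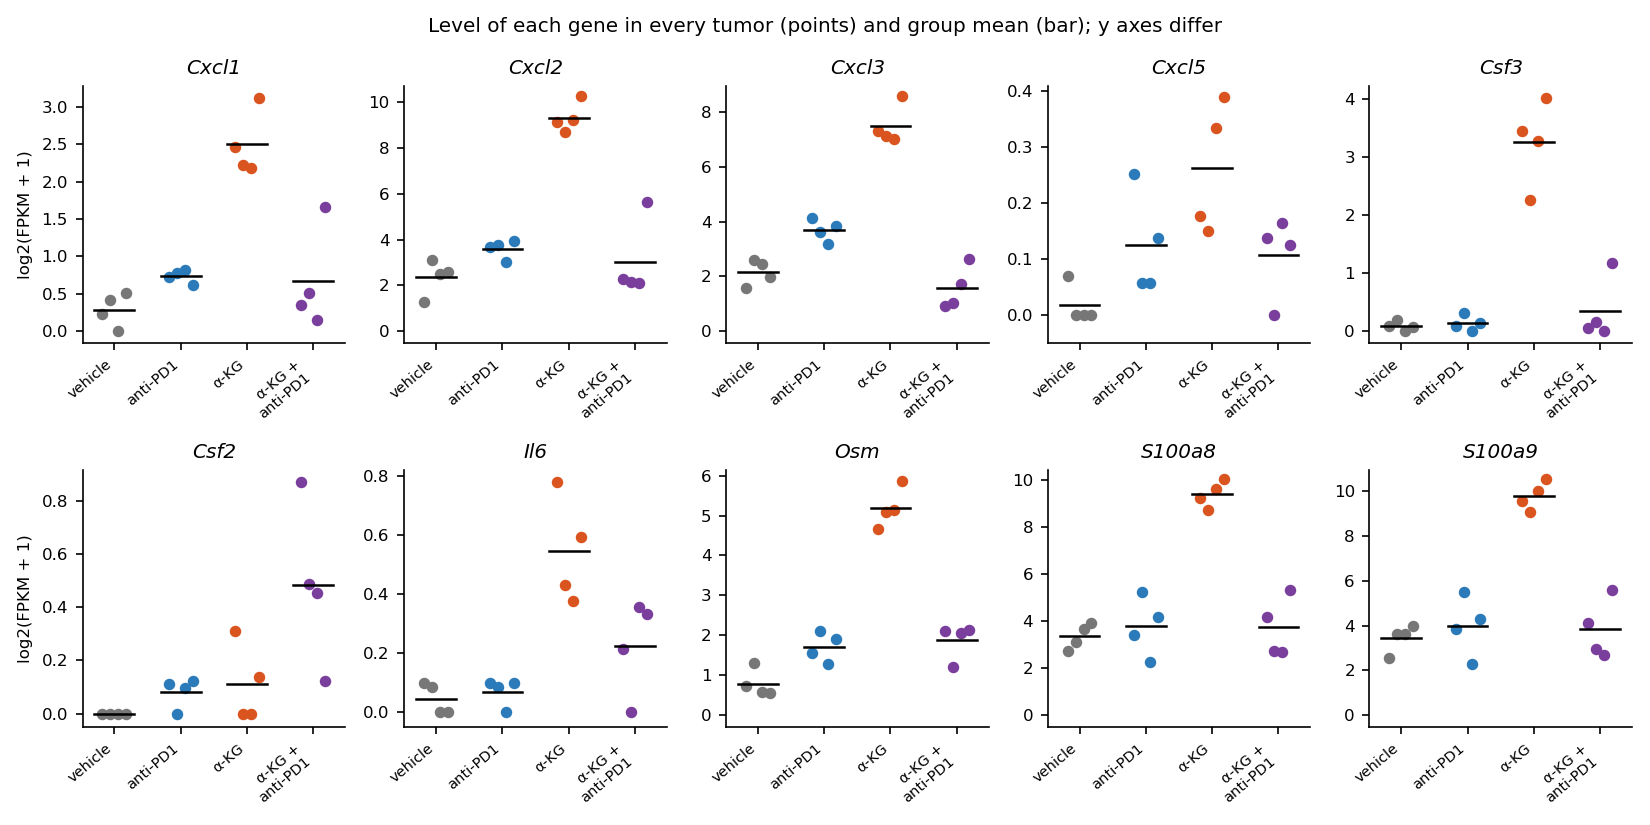
Level of each member and of S100a8 and S100a9 as log2(FPKM + 1) in each of the 16 tumors (points, 4 per group) with the group mean (bar); the y axes differ between panels. The 4 α-KG tumors lay above all 4 vehicle tumors in every panel except Csf2, and combination tumor 4 stood above the other 3 of its group in Cxcl1, Cxcl2 and Csf3.

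In all, the 5 members that were tested, Csf3 among them through the filter as described, were called higher in α-KG than in vehicle tumors, where 8.40% of the 12850 genes were called higher and 7.53% lower. Without the filter 7 of the 8 members were called higher, Csf2 being the exception. The share of all genes called in that fit was not counted. All 4 α-KG tumors lay above all 4 vehicle tumors for 7 of the 8 members, again except Csf2, where 10.1% of the genes tested had that order. Cxcl5 and Il6 are not among the genes tested, so that share does not cover them. An exact two-sided permutation test of the mean FPKM gave p = 0.0286 for each of those 7 members (adjusted over 10 genes 0.0317) and p = 0.429 for Csf2. Groups of 4 that do not overlap always give 0.0286, the smallest possible value, so this test only restates the order. It gave 0.0286 as well for Cxcl1 and Cxcl3 in anti-PD1 against vehicle (adjusted 0.143) and for Csf2 in the combination against vehicle (adjusted 0.286). The direction and the call of the 5 tested members held under each of 15 alternatives (other settings and left-out tumors), with a log2 change of Cxcl2 from 6.60 to 7.29, of Cxcl3 from 4.98 to 5.67 and of Osm from 4.17 to 5.48. The changes of Cxcl1 and Csf3 were larger with a pseudocount of 0.1, at 4.07 and 5.77.

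The members differed widely in level within the α-KG group. The order of mean FPKM was Cxcl2 at 705, Cxcl3 at 200.1, Osm at 37.3, Csf3 at 9.38, Cxcl1 at 4.86, Il6 at 0.47, Cxcl5 at 0.203 and Csf2 at 0.085. Neighbours from Cxcl2 down to Csf3 did not overlap between tumors, nor did Cxcl1 and Il6. Csf3 overlapped with Cxcl1, Il6 with Cxcl5 and Cxcl5 with Csf2. The level of Cxcl2 relative to S100a8 was 0.773 to 1.18 in the α-KG tumors and 0.259 to 1 in the vehicle tumors, whose ranges overlapped. Osm relative to S100a8 was 0.0403 to 0.0795 in the α-KG tumors and 0.0326 to 0.191 in the vehicle tumors, which overlapped, and 0.0919 to 0.38 in the anti-PD1 tumors, which did not overlap with α-KG.

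With the anti-PD1 antibody alone, Cxcl1 and Cxcl3 lay above every vehicle tumor, an order that 5.00% of the genes tested had, but no member passed the test. None of the 5 tested members was called in anti-PD1 against vehicle tumors, where 0.467% of the genes were called higher and 0.280% lower by limma. At an unadjusted p under 0.05, which 16.6% of all genes tested reached, Cxcl3 (0.00122) and Osm (0.00367) passed in limma. Cxcl3 was at 16.69, 11.35, 8.02 and 13.33 FPKM in the anti-PD1 tumors, above all 4 vehicle tumors, and its log2 difference of 1.53 ± 0.39 missed the threshold (adjusted p = 0.068, limma). Cxcl1, at 0.66, 0.72, 0.76 and 0.54 FPKM, was also above every vehicle tumor, with a log2 difference of 0.45 ± 0.27 (adjusted p = 0.42, limma). Cxcl2 was at 11.93, 12.78, 7.25 and 14.3 FPKM, and its lowest tumor fell within the vehicle range. Osm was at 1.94, 3.35, 1.44 and 2.76 FPKM, with a log2 difference of 0.93 ± 0.27 (adjusted p = 0.11, limma), which passed at an adjusted p of 0.043 with a pseudocount of 0.1. Csf3 was at 0.06, 0.25, 0 and 0.11 FPKM, Cxcl5 at 0.19, 0.04, 0.04 and 0.1, Csf2 at 0.08, 0, 0.07 and 0.09 and Il6 at 0.07, 0.06, 0 and 0.07. S100a8, at 9.65, 36.44, 3.79 and 17.2 FPKM, and S100a9, at 13.15, 43.86, 3.9 and 18.28 FPKM, overlapped with vehicle.

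Set against each other, the agents differed in all 5 tested members, each higher in α-KG than in anti-PD1 tumors, Csf3 through the filter. In that comparison 2.80% of the genes were called higher and 0.358% lower. The log2 differences were 5.73 ± 0.64 for Cxcl2, 3.80 ± 0.39 for Cxcl3, 1.76 ± 0.27 for Cxcl1, 3.11 ± 0.30 for Csf3 and 3.47 ± 0.27 for Osm (limma adjusted p from 1.29e-06 to 0.000718). This comparison shares its α-KG tumors with the one above.

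With the antibody added to α-KG, Cxcl1, Cxcl2, Cxcl3, Csf3 and Osm were lower in every tumor than in any tumor given α-KG alone, an order that 5.68% of the genes tested had. Cxcl2 was at 3.83, 3.42, 3.25 and 49.07 FPKM in the combination tumors, so 3 of them fell within the vehicle range and tumor 4 lay above it and below every α-KG tumor. Cxcl3 was at 0.89, 1.02, 2.32 and 5.22 FPKM. Cxcl1 was at 0.27, 0.43, 0.11 and 2.15 FPKM, and Csf3 at 0.04, 0.12, 0 and 1.27. Tumor 4 was the highest of the group in all 4 of these genes. Osm was at 3.34, 1.3, 3.17 and 3.42 FPKM, Cxcl5 at 0.1, 0, 0.12 and 0.09, and Il6 at 0.16, 0, 0.28 and 0.26. S100a8 was at 16.94, 5.69, 5.35 and 39.2 FPKM and S100a9 at 16.55, 6.74, 5.49 and 47.39, again highest in tumor 4 and below every α-KG tumor.

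Against α-KG alone, the 5 tested members fell in the combination tumors, Csf3 among them through the filter. All 7 red cell markers fell as well (values with the cell markers). In this comparison 31.8% of the genes were called higher and 6.47% lower, and the median of all genes was 0.16. That balance moved from 4086 and 832 genes as deposited to 2023 and 2020 after quantile normalization and to 1758 and 3127 after centering. Cxcl2 fell by 6.30 ± 0.64 on the log2 scale, the largest decrease of the genes tested (adjusted p = 1.9e-05, limma). Cxcl3 fell by 5.92, Osm by 3.31, Csf3 by 2.90 and Cxcl1 by 1.83, with SE from 0.27 to 0.39 and limma adjusted p from 3.46e-07 to 0.000382. Il6 was lower by a log2 difference of -0.32 ± 0.08 in the fit without the filter (limma adjusted p = 0.0129). S100a8 and S100a9 fell by 5.67 and 5.94 (adjusted p = 2.99e-05 and 3.2e-05, limma).

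Against vehicle, Osm alone was called higher in the combination tumors, by 1.09 ± 0.27 on the log2 scale (adjusted p = 0.00505, limma), where 34.9% of the genes were called higher and 10.5% lower and the median of all genes was 0.15. After quantile normalization 2241 genes were higher and 3994 lower, and after centering 2197 and 4803, against 4479 and 1348 as deposited. Osm missed the threshold after quantile normalization (0.61, adjusted p = 0.070, limma), which moved that median to -0.11. Cxcl2 differed by 0.66 ± 0.64, and by -0.21 without tumor 4. Cxcl3 differed by -0.59 ± 0.39 (limma adjusted p = 0.23), and by -0.94 without tumor 4, when it passed at an adjusted p of 0.0437. Against anti-PD1, where 14.2% of the genes were called higher and 1.31% lower, Cxcl3 was the only tested member called. The 1819 higher and 168 lower genes became 721 and 1082 after quantile normalization and 802 and 1968 after centering. It was lower by a log2 difference of -2.12 ± 0.39 (adjusted p = 0.00912, limma) and lay below all 4 anti-PD1 tumors, an order that 2.99% of the genes had. That call was lost in a fit of only those 8 tumors (adjusted p = 0.051), and without tumor 4 Cxcl2 was called lower as well (-1.45, adjusted p = 0.0185, limma).

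Csf2 had another order of groups. It was at 0.83, 0.4, 0.37 and 0.09 FPKM in the combination tumors, above the vehicle tumors, which were all listed at 0. Of the genes tested, which do not include Csf2, 28.2% had that order. In the fit without the filter the log2 difference of Csf2 was 0.48 ± 0.11 from vehicle (limma adjusted p = 0.00553), 0.40 ± 0.11 from anti-PD1 (0.0463) and 0.37 ± 0.11 from α-KG (0.0252). All of these levels are below 1 FPKM. T cells are a known source of GM-CSF, and the 5 T-cell markers in the table summed to 16.1 to 148 FPKM in the combination tumors, against 0.39 to 5.39 FPKM with vehicle, 5.01 to 19.7 with anti-PD1 and 3.44 to 23.4 with α-KG. Their part in the level of Csf2 was not tested.

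**Figure D2:**
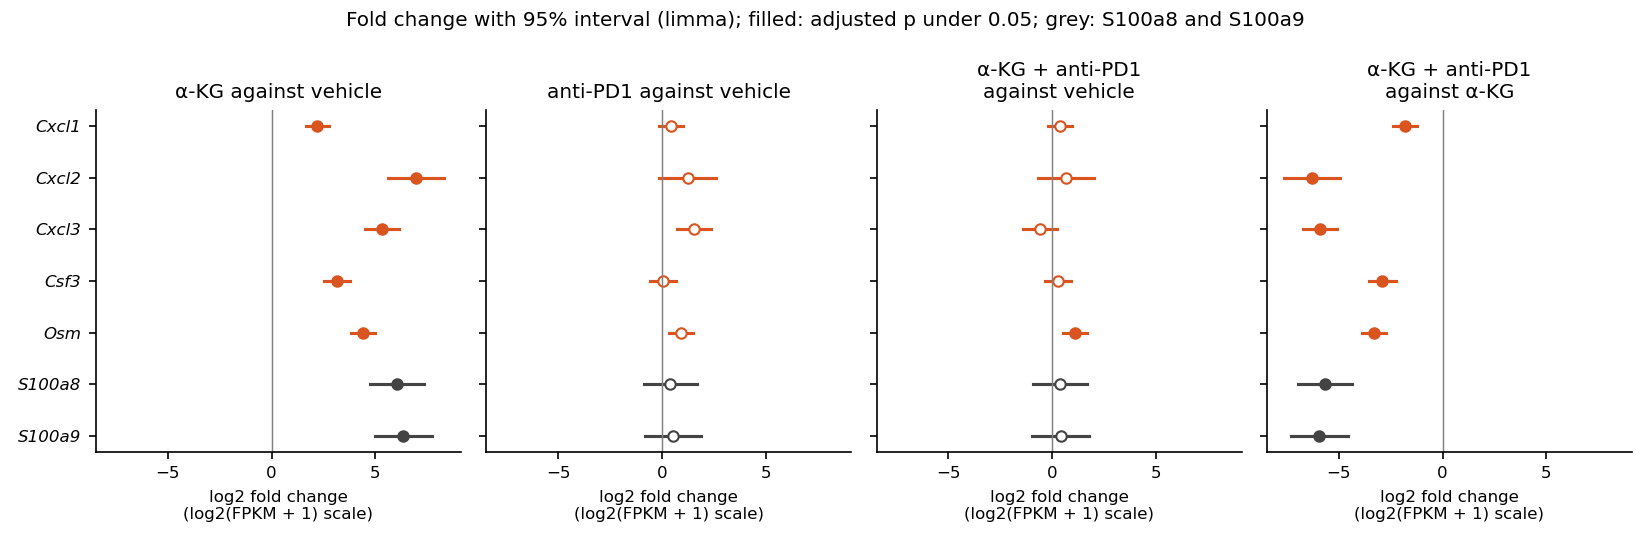
Log2 fold changes on the log2(FPKM + 1) scale with 95% intervals from limma for the 5 tested members (orange) and S100a8 and S100a9 (grey) in 4 comparisons, with filled points past an adjusted p of 0.05. All 7 genes lay right of 0 in α-KG against vehicle and left of 0 in α-KG + anti-PD1 against α-KG, and Osm was the only filled point in α-KG + anti-PD1 against vehicle.

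Whether the antibody acted differently in the presence of α-KG was tested as an interaction, the combination minus α-KG less anti-PD1 minus vehicle, in which 7.99% of the genes were called higher and 3.13% lower. These 1027 and 402 genes became 569 and 559 after quantile normalization and 389 and 633 after centering. It was negative and past the threshold for the 5 tested members, Csf3 among them through the filter. It was -7.54 ± 0.91 for Cxcl2, -7.46 ± 0.55 for Cxcl3, -4.24 ± 0.38 for Osm, -2.95 ± 0.42 for Csf3 and -2.28 ± 0.38 for Cxcl1 (limma adjusted p from 6.41e-06 to 0.0024). For S100a8 and S100a9 it was -6.09 and -6.47.

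The chromosome 5 cluster spans 146.6 kb (GRCm38.p6 chr5:90759298-90905938) and holds 7 protein-coding genes. Besides the 4 members these are Ppbp and Pf4, which encode chemokines stored in platelets, and Cxcl15, a lung chemokine. Cxcl2 and Cxcl3, with the highest α-KG levels of the cluster, lie 144.6 and 26.8 kb from the first base of Cxcl5, and are separated by Cxcl15 and Cxcl1. Cxcl15 was at 0.0225 FPKM in α-KG and 0.0175 in vehicle tumors on average. Ppbp rose by 1.34 ± 0.31 (mean 3.07 FPKM in vehicle and 9.55 in α-KG tumors, limma adjusted p = 0.00741) and Pf4 by 1.44 ± 0.28 (15.9 and 44.8 FPKM, adjusted p = 0.00267). With the antibody alone, Pf4 averaged 45.7 FPKM and was also called higher than with vehicle (1.46, limma adjusted p = 0.0378). Il6 lies at chr5:30013114-30019975, and Csf2 (chr11:54247270-54249899), Csf3 (chr11:98700183-98703631) and Osm (chr11:4236785-4241026) lie on chromosome 11.

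**Figure D3:**
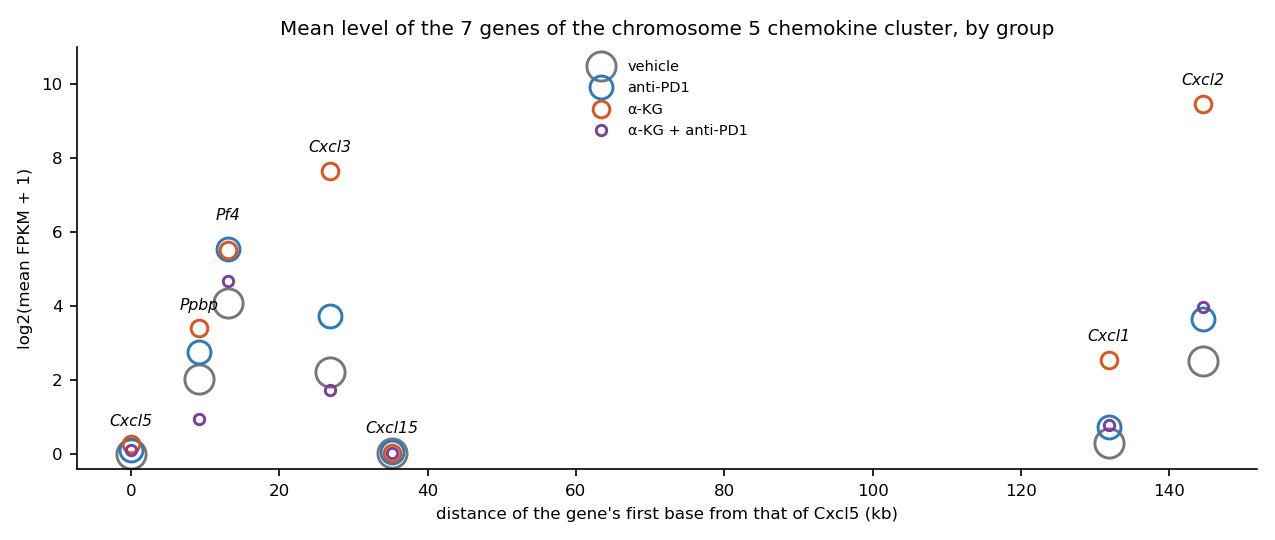
Mean level of the 7 genes of the chemokine cluster as log2(mean FPKM + 1), by group, at the distance in kb of each gene's first base from that of Cxcl5, with circles drawn smaller from vehicle to the combination so that all are seen. The α-KG circles of Cxcl2 (705 FPKM) and Cxcl3 (200.1 FPKM) stand far above the other groups, while Cxcl15 between them stays near 0 in every group.

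Tumors of the same group were then compared, to see whether a tumor with more S100a8 or S100a9 than its group's mean also had more of a member. For these relations, values pooled over groups are not given, since the α-KG tumors lie apart. Over the deviations of the 16 tumors from their group means on the log2 scale, Cxcl2 went with S100a9 (r = 0.78, permutation p = 0.00041, adjusted over 16 relations 0.00656; rho = 0.782, permutation p = 0.00032) and with S100a8 (r = 0.721, permutation p = 0.00124, adjusted 0.00901; rho = 0.724, permutation p = 0.0006). Csf3 went with S100a9 (r = 0.641, permutation p = 0.00169, adjusted 0.00901; rho = 0.638, permutation p = 0.00967) and with S100a8 (r = 0.613, permutation p = 0.00293, adjusted 0.0117; rho = 0.653, permutation p = 0.00703). Outside the α-KG group, Csf3 was at 0 to 0.25 FPKM in every tumor but combination tumor 4, so its deviations there were small. Its r therefore rests mainly on the α-KG tumors, the group in which it was high, and on combination tumor 4. Without anti-PD1 tumor 3 and combination tumor 4, the 2 farthest from the median, r was 0.731 and 0.616 for Cxcl2 and 0.56 and 0.514 for Csf3. Leaving out combination tumor 4 alone, Cxcl2 with S100a9 stayed past the threshold (r = 0.687, permutation p adjusted 0.0256) and the other 3 relations did not (adjusted 0.0691 to 0.0822), so they rest on that tumor. Csf3 with S100a8 also missed it without combination tumor 3 (r = 0.579). The deviations of S100a8 and S100a9 were almost the same (r = 0.9845), so a member's relations with the 2 are not separate results. The other 12 relations missed the threshold, with r of 0.484 to 0.581 for Cxcl1, Cxcl3 and Osm, 0.194 to 0.225 for Cxcl5 and Il6, and -0.279 to -0.235 for Csf2. Among the members themselves, as a description of the same 16 deviations, r was 0.84 for Cxcl1 with Cxcl2, 0.82 for Cxcl2 with Cxcl3 and 0.80 for Cxcl1 with Csf3, and 0.34 to 0.58 for Osm with the other 4.

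**Figure D4:**
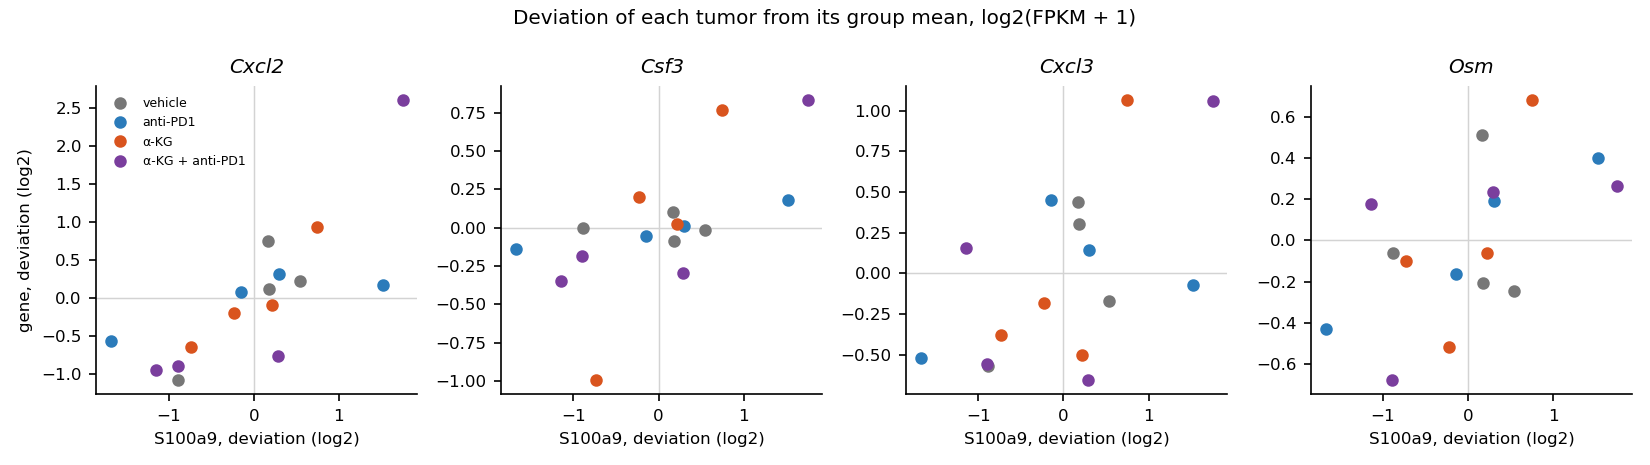
Deviation of each tumor from its group mean in S100a9 (x axis) and in Cxcl2, Csf3, Cxcl3 or Osm (y axis), on the log2(FPKM + 1) scale, colored by group. The points of Cxcl2 follow S100a9 most closely (r = 0.78), with combination tumor 4 at the upper right of the first 3 panels.

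The genes whose levels were most like each tested member over the 16 tumors were listed by Pearson's r on the log2 scale, as a description in which the α-KG group carries most of the range. For Cxcl2 these were G0s2 (0.983), Trem1 (0.981), a receptor that amplifies myeloid inflammatory signals, and Hdc (0.977), the enzyme that makes histamine. For Cxcl1 they were Cxcl2 (0.974), Serpinb2 (0.959) and Hdc (0.959), and for Cxcl3 they were Cstdc4 (0.956), Cxcl2 (0.952) and Spatc1 (0.946). Csf3 was most like Serpinb2 (0.998), an inhibitor of urokinase, Chil1 (0.992) and Slpi (0.990), an inhibitor of neutrophil elastase. Osm was most like Il1r2 (0.986), the decoy receptor of IL-1, Ifitm1 (0.984) and Zbtb8b (0.983). Over deviations from the group means, r of these pairs ran from 0.519 (Cxcl3 with Spatc1) to 0.9895 (Csf3 with Serpinb2).

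The receptors of the members were measured next. Of 11 genes listed as receptors, 7 rose in α-KG against vehicle tumors and none fell, beside 8.40% and 7.53% of all genes tested. Their median log2 change was 1.61, against -0.04 over all genes tested. Csf3r, the G-CSF receptor, rose by 3.98 ± 0.27, from a mean of 2.74 to 60.2 FPKM (adjusted p = 1.22e-07, limma). The CXCR2-ligand receptors Cxcr2 and Cxcr1 rose by 1.62 ± 0.18 and 1.88 ± 0.15, from 6.25 to 20.9 FPKM and from 0.0775 to 3.08 FPKM. Cxcr1 reached 0.5 FPKM only in the 4 α-KG tumors and so entered the test, and these counts, through that group. The GM-CSF receptor chains Csf2ra and Csf2rb rose by 1.61 and 3.17. Csf2rb2, also on the list, is a chain of the IL-3 receptor and not of the GM-CSF receptor, and rose by 2.15. Il6ra, the IL-6 binding chain, rose by 1.03 (limma adjusted p of these chains from 1.79e-05 to 0.00179). The gp130 gene Il6st (0.23), its partners Osmr (0.18) and Lifr (0.24), and the chemokine scavenger Ackr1 (-0.58) did not pass. In the combination tumors against α-KG, Cxcr2 fell by 1.09, Cxcr1 by 1.87, Csf3r by 2.36 and Csf2rb by 1.08, while Csf2ra rose by 0.79 (limma adjusted p from 1.61e-06 to 0.0458), a call of Csf2ra that quantile normalization and centering removed. None of the 11 was called in anti-PD1 against vehicle tumors by limma. An unadjusted p under 0.05 was reached by 7, of which Ackr1 was lower (-0.58), beside 16.6% of all genes tested. The median log2 difference there was 0.45, beside 0.03 over all genes.

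Other genes of the pathway were read from fixed lists. In α-KG against vehicle tumors, 8.40% of all genes tested were called higher and 7.53% lower. Of 14 listed upstream cytokines and receptors in the table, 11 were tested and 8 rose in α-KG against vehicle tumors, with a median log2 change of 3.86. They were led by Il1b, which rose by 6.94 ± 0.50 from 2.94 to 465.7 FPKM, the IL-1 receptor antagonist Il1rn (5.12), Il1a (4.64) and Tnf (4.38). Of 12 NF-κB factors and inhibitors 11 rose, with a median of 1.27. The largest changes were in Nfkbia (4.04) and Nfkbid (3.54), which encode IκB proteins, Nfkbiz (2.88) and the ubiquitin editor Tnfaip3 (2.71). Of 11 response genes of IL-6 and oncostatin M 9 rose, with a median of 2.93, led by the acute-phase gene Saa3 (6.90), Lcn2 (6.49), Lrg1 (4.06) and the signaling inhibitor Socs3 (3.01). Lcn2 and Lrg1 are also made by neutrophils.

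Of 9 factors that bind or cut short-lived messages, 4 rose and 1 fell. Zfp36 (tristetraprolin), which binds AU-rich elements, rose by 2.90 from a mean of 17.1 to 138.7 FPKM, and the endonuclease gene Zc3h12a rose by 1.92. Zfp36l1 rose by 0.81 and Rc3h1 by 0.37, and Hnrnpd had a log2 change of -0.32, past the threshold (limma adjusted p = 0.0348), which it missed after rescaling and in a fit of only those groups. Of 10 related ligands 6 were tested and 3 rose, Csf1 by 2.19 along with Pf4 and Ppbp.

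The same lists were counted in the combination tumors. Against α-KG alone, where 31.8% of all genes tested were called higher and 6.47% lower, 7 of the 11 upstream genes fell and 1 rose. Of the response genes 8 of 11 fell (median -1.19), and of the NF-κB genes 4 of 12 fell (median -0.19). Under 3 other scalings 6 to 8 upstream, 8 to 10 response and 4 to 9 NF-κB genes fell. The split of the decay factors, 1 lower and 3 higher, turned with the scaling, to 4 lower and 0 higher after centering. In the combination against vehicle tumors, 34.9% of all genes tested were called higher and 10.5% lower. Of the lists, 9 upstream, 11 NF-κB, 7 response and 6 decay genes were higher there and none was lower. Their medians were 1.12, 1.15, 0.76 and 0.37, beside 0.15 over all genes. Under the other scalings 7 to 9, 9 to 11, 4 to 7 and 3 to 7 genes were higher, with at most 2 of a list lower. In anti-PD1 against vehicle tumors limma called Il1rn (2.01, adjusted p = 0.0463) and no NF-κB, response or decay gene, of which 4 of 12, 3 of 11 and 2 of 9 had an unadjusted p under 0.05, beside 16.6% of all genes.

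**Figure D5:**
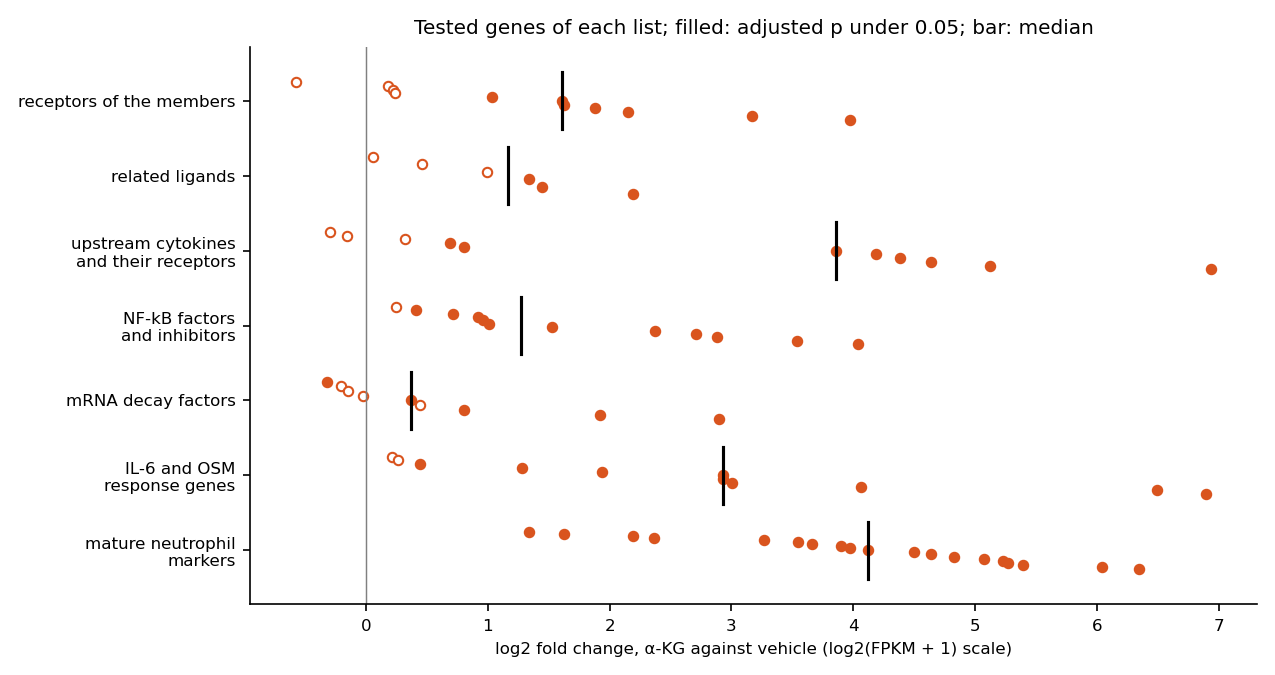
Log2 fold change in α-KG against vehicle tumors, on the log2(FPKM + 1) scale, of every tested gene of 7 lists (points, filled where the limma adjusted p is below 0.05), with the list's median (bar). All 19 mature neutrophil markers lie right of 0 (median 4.12), and Il1b (6.94) and Saa3 (6.90) are the points farthest right.

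Markers of the cells that could hold these messages were set beside the members. All 19 markers of mature neutrophils, a list that holds S100a8, S100a9, Csf3r and Cxcr2, rose in α-KG against vehicle tumors (median 4.12), among them Hdc (5.40), Retnlg (5.27), G0s2 (5.23) and Clec4e (5.07), a C-type lectin. Of the 19, Ly6g and Wfdc21 reached 0.5 FPKM only in the 4 α-KG tumors and Mrgpra2b only there and in 1 combination tumor, so their calls come with the filter. The summed level of the 19 was 1370 to 3694 FPKM with α-KG, against 34.2 to 49.2 with vehicle, 49.9 to 151 with anti-PD1 and 52.5 to 163 with the combination, where tumor 4 was the highest. In the α-KG tumors S100a8 and S100a9 made up most of that sum, at 1358 of 2036, 945.1 of 1370, 1806 of 2662 and 2517 of 3694 FPKM. The sum thus largely restates these 2 genes. The defining marker Ly6g was listed at 0 in all 4 vehicle tumors and was at 1.57 to 9.16 FPKM in the α-KG tumors, where Mmp8 was at 8.04 to 12.8 FPKM. Against α-KG, 18 of the 19 fell in the combination tumors (median -3.13), with the same limit for Ly6g, Wfdc21 and Mrgpra2b. Of 7 precursor genes, which mark granule formation in the marrow, only Ngp was tested (0.90, limma adjusted p = 0.0416, a call lost under 5 alternatives), and the other 6 were below the filter. Mpo and Ctsg were listed at 0 in all 4 α-KG tumors, the mean level of Prtn3 was 0.39 FPKM in α-KG and 0.0675 in vehicle tumors (0.38 on the log2 scale in the fit without the filter, limma adjusted p = 0.0134), and that of Camp was 0.31 and 0.06 FPKM (0.30, adjusted p = 0.10). Elane averaged 0.085 and 0.0525 FPKM and Ltf 0.338 and 0.115 FPKM, with adjusted p of 0.79 and 0.49.

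All 6 monocyte markers also rose in α-KG against vehicle tumors (median 2.28, summed level 7.98 to 24.4 FPKM in vehicle and 109.3 to 114 in α-KG tumors), as did 4 of 7 macrophage markers (median 1.45, 97.2 to 486 and 428 to 696 FPKM). With anti-PD1 alone the monocyte sum was 37.3 to 66.2 FPKM and the macrophage sum 426 to 800, which overlapped with α-KG. In α-KG against anti-PD1 tumors, 0 of 7 macrophage markers had an unadjusted p under 0.05 (limma). In the combination tumors the monocyte sum was 48.0 to 255 FPKM and the macrophage sum 672 to 1617. The 5 skeletal muscle markers were lower in α-KG than in vehicle tumors (median -2.73, summed level 3.3 to 4.13 against 49.7 to 644 FPKM). The muscle sum was also low with anti-PD1, at 2.49 to 3.97 FPKM, so this was not particular to α-KG. With the combination it was 4.11 to 62.3 FPKM. Of the melanoma markers 1 of 7 rose (median 0.07), of the red cell markers 1 of 7 fell (median -0.52), calls that were lost under 5 and 3 of 6 alternatives, and of the tested endothelial markers 1 of 2 rose, and no T-cell (0 of 5), fibroblast (0 of 5), mast cell (0 of 2) or adipocyte marker (0 of 1) was called by limma or had an unadjusted p under 0.05, which 30.2% of all genes tested had. The sum of 6 keratinocyte markers, none of them tested, was 0.32 to 0.87 FPKM in α-KG tumors. In the combination against α-KG tumors, all 7 red cell markers fell (median -2.43, and -2.71 to -1.75 under 3 other scalings), with Hba-a1 at 4129 to 4529 FPKM in the combination, 10783 to 36200 in α-KG and 25247 to 44570 in vehicle tumors. All 5 T-cell markers rose in the same comparison (median 2.29), of which quantile normalization and centering each kept 4. Of the macrophage markers 3 of 7 rose, and of the monocyte markers 3 of 6 fell. In that comparison 31.8% of all genes tested were called higher and 6.47% lower. The 3 of 7 macrophage markers thus lie near the share of all genes, a share that moved with the scaling (1758 higher and 3127 lower after centering). The part of these cells in the levels of the members was not tested.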

How the data were processed

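Poly(A) RNA of 16 tumors was sequenced as strand-marked (dUTP) libraries on a DNBSEQ instrument. The authors deposited 1 table of FPKM values with 2 decimals, 1 column per tumor, and no replicates were pooled. The submitters' processing notes name HISAT, Bowtie2 and the build mm10, without versions; the program that computed FPKM, the annotation and any filter are not given in the sources used here. Depth per tumor is unknown, so no counting intervals were computed.

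The 12850 of 18929 genes that reached 0.5 FPKM in 4 tumors or more were tested on log2(FPKM + 1) by limma 3.58.1 in R 4.3.3, with the prior variance following the mean level (limma-trend), 1 mean per group over all 16 tumors, with Benjamini-Hochberg adjustment over all genes tested and a threshold of 0.05. Each tumor is an independent sample according to the study's methods. The fit was tested on simulated data. Single values were compared by exact permutation over 70 divisions of 8 tumors, in 10 genes and 6 comparisons, and relations by 100000 permutations within groups. The alternatives were a pseudocount of 0.1, no filter, 3 scalings, a fit of only the groups compared, a replicate block and leaving out each tumor. Replicate numbers did not pair tumors. Promoters are from RefSeq (GRCm38.p6, the same coordinates as mm10), and message identity was taken from GENCODE transcripts. Motifs were searched in Python 3.11.15.

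The members, gene lists and tests were chosen with earlier results of these data known. The members, S100a8, S100a9 and the receptors are named whatever their values, and from the other lists up to 4 genes called in α-KG against vehicle with the largest changes, with the 3 genes most like each tested member; genes of the cluster, Ly6g, Wfdc21, Mrgpra2b, Mmp8, Hba-a1 and the neutrophil precursor genes were named after their values were seen.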

Additional observations from a re-analysis of the deposited data

Results flagged for a closer look

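Among the 39 groups of 4 tumors examined over the members, S100a8 and S100a9, 7 held a tumor whose gap to its nearest neighbor exceeded Dixon's 95% limit. That limit flags about 1 in 20 independent groups of normally distributed values. The groups here are FPKM values of related genes in the same tumors, so the 7 cannot be read against that share. α-KG + anti-PD1 tumor 4 was the highest of its group in Cxcl1 at 2.15 FPKM, in Cxcl2 at 49.07 FPKM and in Csf3 at 1.27 FPKM. α-KG tumor 4 was the highest in Cxcl3 at 377.4 FPKM. α-KG + anti-PD1 tumor 2 was the lowest in Osm at 1.3 FPKM. Vehicle tumor 1 was the highest in Cxcl5 at 0.05 FPKM and anti-PD1 tumor 3 the lowest in Il6, listed at 0, both at levels near the second decimal of the table.

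The effect of anti-PD1 differed with and without α-KG by an interaction term of limma in 7 genes, Csf3 among them through the filter. The log2 differences were -2.28 for Cxcl1 (adjusted p = 0.0024), -7.54 for Cxcl2 (0.000133), -7.46 for Cxcl3 (6.41e-06), -2.95 for Csf3 (0.000666), -4.24 for Osm (1.98e-05), -6.09 for S100a8 (0.00057) and -6.47 for S100a9 (0.000559). No cause of these values was tested.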

How the results depend on the processing

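The count of tested members called was 5 in α-KG against vehicle, in α-KG against anti-PD1, in α-KG + anti-PD1 against α-KG and in the interaction, under every alternative that kept the filter. With a replicate block the counts were 5, 0, 1, 1, 5, 5 and 5 over the 7 comparisons, as without it; same-numbered tumors correlated from -0.642 to 0.411, with 9 of 24 pairs over 0.1. A pseudocount of 0.1 gave 1 call in anti-PD1 against vehicle (Osm). In α-KG + anti-PD1 against vehicle the count was 2 without the filter, 0 after quantile normalization and 1 to 2 over left-out tumors. Against anti-PD1 it was 2 without the filter, 0 with only the 2 groups and 1 to 2 over left-out tumors. Relations past the threshold numbered 8 after quantile normalization and 1 to 4 over left-out tumors, against 4. Reversed log2 differences, none of them called, were -0.0071 (quantile) and -0.025 (centering) for Csf3 in anti-PD1 against vehicle; -0.047 and -0.022 (centering) for Csf3 in α-KG + anti-PD1 against vehicle and anti-PD1; and, against anti-PD1, -0.17 (quantile) and -0.072 (centering) for Osm and 0.13 and 0.058 (rescaling) for S100a8 and S100a9. Over left-out tumors, in anti-PD1 against vehicle Csf3 ranged from -0.0077 to 0.1 and S100a8 from -0.074 to 0.92; in α-KG + anti-PD1 against vehicle Cxcl2 from -0.21 to 0.98, Csf3 from -0.013 to 0.38, S100a8 from -0.17 to 0.72 and S100a9 from -0.17 to 0.79; against anti-PD1 Cxcl1 from -0.40 to 0.10, Csf3 from -0.066 to 0.33, S100a8 from -0.58 to 0.44 and S100a9 from -0.71 to 0.38; and the r of Csf2 from -0.533 to 0.246 with S100a8 and from -0.531 to 0.193 with S100a9. The cause was not tested. Over all genes, 1080 were called higher and 968 lower in α-KG against vehicle, 1039 and 1644 after quantile normalization, 1055 and 1379 after centering and 843 and 403 after rescaling. The list counts in the combination under other scalings were added after seeing the data. Depth limits the values below 1 FPKM.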
